A study of Mus musculus with 12 samples.

Results

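The cytosolic ribosomal protein (RP) genes encode the protein subunits of the 80S ribosome. They were taken as the protein-coding mouse genes whose symbol starts with Rpl or Rps followed by a digit, together with Rplp0, Rplp1, Rplp2 and Rpsa. The Rps6k kinases, Rps19bp1 and genes named as pseudogenes (-ps) were left out, which removed 17 protein-coding symbols. This gave 85 genes of the 55487 in the count tables, 52 of the large (60S) and 33 of the small (40S) subunit, and 8 of them carry paralog names ending in l, l1 or rt.

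The samples were B16F10 cells, a mouse melanoma line, transduced with a lentiviral control hairpin (shCtr) or with hairpin number 2 against Osgep (shOSGEP) and selected with puromycin. Osgep encodes the catalytic subunit of KEOPS, the complex that places t6A beside the anticodon of tRNAs reading codons that start with A (ANN codons). Each of the 3 replicate numbers per hairpin had a ribosome-protected fragment (RPF) library and a total RNA library, 12 libraries in 4 groups of 3. The labels do not say whether both libraries of a number came from the same cells. Elongation was stopped with cycloheximide (10 µg/mL, 5 min), and active ribosomes were pulled down with a puromycin analogue. A single hairpin was used, so effects of the hairpin and of the loss of Osgep cannot be told apart, and no rescue was analysed here.

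RP messages are among the most abundant of a growing cell, and the proteins they encode are made in near equal numbers for assembly with rRNA. Most begin with a 5′ terminal oligopyrimidine (TOP) tract, a cytosine at the cap followed by a run of pyrimidines. Through this tract, mTOR signalling and the RNA-binding protein LARP1 turn translation of RP messages up or down together. Mammalian RP genes have also left many processed pseudogenes, intronless copies with nearly the same sequence as the message.

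RefSeq start-site sequences (GRCm38.p6) were found for 65 of the 85 genes. A C at position +1 followed by at least 4 letters that were C or T, searched on the transcribed strand only, occurred at any of the annotated starts of 14 of them (21.5%) and in 813 of all 27025 genes with an entry (3.01%). The windows of 30 bases below run from position -10 to +20 of the start site nearest to the annotated gene start, with the longest pyrimidine run near the start in capitals. They show the genes with the lowest and the highest footprints per RNA that had an entry (Rpl35, Rpl10 and Rps26, then Rpl13a, Rpl26 and Rpl22), and their runs range from 2 to 18 letters.
Rpl35, chr2:39005112-39005141, minus strand: ccgCCCTTTCCTCTTTCTCTCgaaccaggc
Rpl10, chrX:74270806-74270835, plus strand: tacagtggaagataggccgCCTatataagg
Rps26, chr10:128626487-128626516, minus strand: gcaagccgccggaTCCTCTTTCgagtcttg
Rpl26, chr11:68901556-68901585, plus strand: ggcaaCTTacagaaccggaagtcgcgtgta
Rpl22, chr4:152325716-152325745, plus strand: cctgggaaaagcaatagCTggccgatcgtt
Rpl13a, chr7:45128726-45128755, minus strand: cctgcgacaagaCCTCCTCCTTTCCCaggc
These are annotated starts, 4 to 493 bases from the gene start of the other annotation, and the starts used in B16F10 cells were not measured here.

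The coding sequences of RP genes differed from those of other genes in codon content and in uniqueness. ANN codons, those read by tRNAs that carry t6A, made up a median 33.7% of codons in the 85 RP genes, against 27.1% in 10584 genes tested for footprints per RNA. The range ran from 21.1% in Rplp1, an acidic stalk protein, to 68.0% in Rpl41. Rpl41 is a very short basic peptide with 75 coding bases, not counting the stop codon. The median RP coding sequence was 453 bases long, against 1404 bases over the genes tested. Of all 30-base windows of an RP coding sequence, a median 96.4% had an exact copy elsewhere in the genome, and the median over genes tested was 0%. In 33 RP genes every window had such a copy, and of 225839 positions that held a copy 92.9% lay inside annotated pseudogenes.

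The windows below are from the coding strand of GRCm38, 1 for each of 4 RP genes, with ANN codons in capitals. Each is the contiguous window of that gene with the most exact copies elsewhere, chosen to show how far an RPF-sized sequence is shared.
Rpl7a, chr2:26912383-26912412, 76 copies: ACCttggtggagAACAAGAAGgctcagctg
Rpl26, chr11:68904401-68904430, 12 copies: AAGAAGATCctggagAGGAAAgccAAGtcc
Rpl35, chr2:39004113-39004142, 11 copies: cagACTcaaAAAgaaAACctcAGGAAAttc
Rps26, chr10:128626106-128626135, 5 copies: AAGAAGtttgtcATTcggAACATTgtagaa
Rpl7a and Rpl26 lie on the plus strand, and Rpl35 and Rps26 on the minus strand.

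With M for mega, total counts were 12.9 to 40.3 M in the RPF libraries and 46.7 to 81.1 M in the total RNA libraries. Ribosomal RNA took 27.7 to 67.7% of RPF counts, highest in shOSGEP replicate 1, which left 4.42 to 17.0 M RPF counts on protein-coding genes. Osgep RNA in shOSGEP was 4.25%, 44.0% and 44.4% of the shCtr library with the same replicate number, so replicate 1 stood apart from the other 2. In RPF it was 63.1%, 52.3% and 50.1%, with the weakest loss in replicate 1. Osgep itself did not pass the edgeR test, with a log2 change of -1.65 ± 0.77 (SE, adjusted p = 0.97) in total RNA and -0.84 ± 0.39 (SE, adjusted p = 1.00) in RPF. All 7 melanocyte lineage markers were detected in every total RNA library, although Tyr ranged from 6.31 to 274.7 CPM (counts per M counts of the scaled library). The fibroblast, macrophage and keratinocyte lists held no gene above 15.3 CPM, with Col3a1 and Krt5 at 0 counts in every total RNA library. Nothing states that all libraries of one replicate number share a day or batch. P-values measure only the spread between these samples. The paper's methods report 3 independent transductions per experiment. The labels do not say which transduction or culture each library came from.

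In total RNA the most abundant RP messages per length were Rplp1, Rps2 and Rps15. Rplp1 stood at 2362, 2277 and 1612 CPM per kb of transcript in the 3 shCtr libraries. Rps2, a protein of the mRNA entry channel of the small subunit, stood at 1761, 1862 and 1663 CPM per kb. Rps15 stood at 1430, 1403 and 1092 CPM per kb, below all 3 Rps2 values, whereas the Rplp1 and Rps2 values overlapped. Over the 81 RP genes tested in both assays, the lowest mean level per kb was 46.2 CPM, for Rpl22, a protein that binds RNA outside the ribosome as well.

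The paralogs were present at very different levels. Rpl3l, the muscle form of Rpl3, had at most 3 counts in any library, Rpl10l, the testis form of Rpl10, also had at most 3, and Rpl39l had 0 counts in all 12 libraries. A count of 0 allows up to 3 counts per library, so a low level could not be detected. Rps27rt, an intronless Rps27 copy, had 361, 263 and 488 counts in shCtr RNA and 0, 8 and 0 in shCtr RPF. Every 30-base window of the Rps27rt coding sequence has an exact copy elsewhere, so reads of that size from it cannot be assigned by sequence alone. Whether total RNA reads, which can be longer or lie outside the coding sequence, could be assigned was not assessed. By contrast Rps27l stood at 367, 444 and 360 CPM per kb in shCtr RNA, beside 540, 622 and 435 for Rps27. Rpl22l1 stood at 54.4, 62.5 and 35.4 CPM per kb, a range that overlapped that of its parent Rpl22 at 47.8, 50.1 and 40.7. Rpl7l1, a relative of Rpl7 in large-subunit assembly, stood at 58.5, 64.7 and 54.6 CPM per kb, all far below Rpl7 at 570.6, 585.7 and 508.0.

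The share of protein-coding counts on RP genes asked whether the loss of Osgep changed how much of the transcriptome, or of translation, went to ribosomal proteins. In shCtr RPF the share was 4.42%, 4.17% and 3.10% in replicates 1 to 3, and in shOSGEP RPF it was 4.90%, 4.06% and 2.94%. The group means were 3.90% ± 0.70 (SD, n = 3) and 3.97% ± 0.98 (SD, n = 3). The 2 groups overlapped, and the difference of 0.0664 percentage points gave p = 1 in an exact two-sided permutation test, which cannot go below 0.1 with 3 against 3. In total RNA the shares were 4.57%, 4.38% and 3.90% in shCtr and 4.43%, 4.52% and 3.93% in shOSGEP. The difference was 0.00606 percentage points (exact permutation p = 1). Replicate 3 was the lowest of its group in all 4 groups, and in RPF the gap between replicates exceeded the gap between hairpins.

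**Figure D1:**
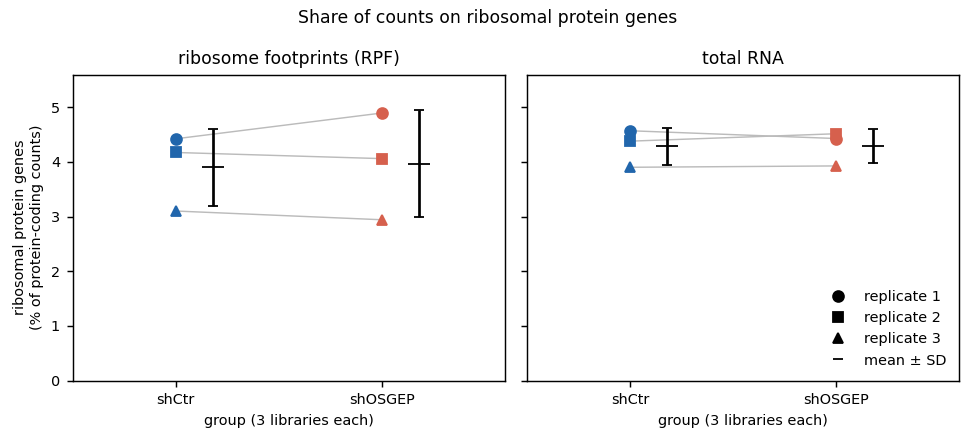
Share of protein-coding counts on the 85 ribosomal protein genes (y axis, percent) in each library, by hairpin (x axis), for RPF (left) and total RNA (right). Symbols give the replicate, grey lines join the same replicate number, and bars give the mean ± SD of 3 libraries. The replicate 3 libraries sit lowest in all 4 groups, at 2.94 to 3.93%.

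The lower level in replicate 3 was spread over the genes. In shCtr RPF, 76 of 81 RP genes were lower in replicate 3 than in the mean of the other 2 replicates, with a median log2 difference of -0.73, while 47.6% of all genes tested were lower. In shOSGEP RPF, 74 of 81 were lower, with a median of -1.06. In total RNA, 79 of 82 RP genes were lower in shCtr (median -0.27) and 76 of 82 in shOSGEP (median -0.22). These values describe libraries, and what set the replicate 3 libraries apart was not tested.

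shOSGEP was then compared with shCtr gene by gene, to ask whether single RP genes changed in footprints, RNA or translational efficiency (TE, the change in RPF beyond that in RNA). No RP gene passed an adjusted p of 0.05 in any of the 3 fits with edgeR's quasi-likelihood test. In RPF, 0 of 81 RP genes were called, as were 0 of 13529 genes tested (0%). No RP gene was below an unadjusted p of 0.05, where 1.03% of all genes tested were. In total RNA 0 of 82 RP genes and 0 of 14516 genes (0%) were called, and 0 RP genes and 1.78% of all genes had an unadjusted p under 0.05. In TE 0 of 81 RP genes and 0 of 12560 genes (0%) were called, and 0 RP genes and 0.135% of all genes had an unadjusted p under 0.05. DESeq2 also called 0 RP genes in each, with 1 gene over all called in RPF, 8 in total RNA and 0 in TE. Under DESeq2, 0 RP genes in RPF, 0 in total RNA and 1 in TE had an unadjusted p under 0.05.

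The fitted log2 changes of RP genes were centred close to those of all genes. The median was -0.01 in RPF (all genes 0.05), -0.02 in total RNA (all genes 0.02) and -0.01 in TE (all genes -0.0024). The precision was uneven, since the median standard error (SE) of an RP gene was 0.43 in RPF, 0.17 in total RNA and 0.47 in TE. Changes of single RP genes of the size of these errors were not detectable with 3 replicates. In RPF, 35 RP genes had a fitted change above 0 and 46 below.

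In RPF and TE, however, most RP genes moved the same way within a replicate, and the replicates disagreed in direction. The median log2 change in TE over the RP genes was 0.32, -0.18 and -0.27 in replicates 1 to 3. Replicate 1 had 72 of 81 RP genes with a higher TE in shOSGEP, against 14 in the second replicate and 16 in the third. The RPF medians were 0.18, -0.14 and -0.23, and the total RNA medians -0.12, 0.03 and 0.01. In total RNA 17, 48 and 47 of 82 RP genes were higher, near an even split in replicates 2 and 3. The medians of all genes tested lay between -0.02 and 0.01 in these 9 comparisons. Leaving out both replicate 1 libraries gave an RP median of -0.19 in RPF and -0.20 in TE, with 0 genes called. The same order was seen in 15 abundant messages listed as having no TOP tract (Actb, Pkm, Ppia and others), with median TE changes of 0.43, -0.20 and -0.37. In 21 other messages listed as TOP messages, mostly translation factors, these medians were 0.11, -0.13 and -0.37. The order differed in 15 regulators of TOP messages (-0.20, 0.10 and 0.0032) and in 31 ribosome biogenesis genes (0.25, -0.11 and 0.02).

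**Figure D2:**
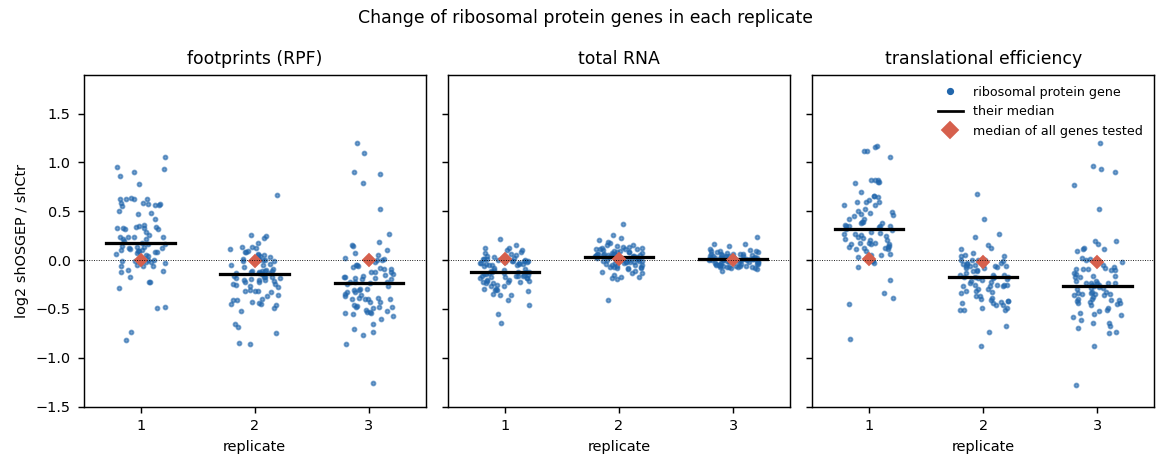
Log2 shOSGEP over shCtr (y axis) for each tested ribosomal protein gene (blue points) in each replicate (x axis), for RPF, total RNA and translational efficiency. Black lines are their medians and red diamonds the medians of all genes tested; in TE the medians were 0.32, -0.18 and -0.27.

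Few RP genes moved the same way in all replicates. In RPF, 5 of 81 were higher in shOSGEP in all 3 replicates (6.17%, beside 15.9% of all genes tested) and 11 were lower (13.6%, beside 15.2%). In total RNA 3 of 82 were higher (3.66%, beside 17.7%) and 11 were lower (13.4%, beside 16.2%). In TE 3 were higher (3.70%, beside 11.6%) and 3 lower (3.70%, beside 11.2%). Each of these 6 shares was below that of all genes tested, and the difference was not tested. The groups did not overlap for 1 RP gene in RPF, with shOSGEP higher (2.43% of all genes tested), and for 0 with shOSGEP lower (2.64%). In total RNA this held for 0 RP genes in either direction (4% of all genes higher, 3.09% lower), and in TE for 1 higher (2.03%) and 0 lower (2.31%).

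The gene without overlap was Rpl35, a protein near the exit tunnel of the large subunit. Its RPF level was 1.07, 0.909 and 1.06 CPM in shCtr and 1.16, 1.49 and 2.36 CPM in shOSGEP. The log2 change was 0.72 ± 0.49 (SE), with an edgeR adjusted p of 1.00, and it rested on 14 to 91 counts per library. Without shOSGEP replicate 3 it was 0.38. Rps2 was the next by p, with 194, 157 and 217 CPM in shCtr RPF and 245, 167 and 497 CPM in shOSGEP RPF. One library, shOSGEP replicate 3, was far above the others, and the log2 change of 0.68 ± 0.46 (SE) fell to 0.11 without it. Rplp0, the base of the ribosomal stalk, had 747, 501 and 610 CPM in shCtr RPF and 424, 532 and 419 CPM in shOSGEP RPF, a log2 change of -0.44 ± 0.34 (SE). These genes were also among those with the smallest p in TE, with log2 changes of 0.74 for Rpl35, 0.70 for Rps2 and -0.43 for Rplp0. Without shOSGEP replicate 3 the first 2 were 0.41 and 0.12.

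Among genes with the same sign in every replicate, Rpl26 had RPF log2 differences of 0.42, 0.12 and 0.15. Rps26, which lines the mRNA exit site, had RPF differences of -0.49, -0.46 and -0.20. Rps3, a small-subunit protein at the mRNA entry site, had -0.49, -0.13 and -0.46. None of these passed the test. With 1 library left out, the fitted RPF change fell to 0.03 for Rpl26 (without shOSGEP replicate 1), was -0.05 for Rps26 (without shCtr replicate 2) and was -0.13 for Rps3 (without shOSGEP replicate 3). In total RNA the smallest p belonged to Rpl22, at 98.1, 103 and 83.5 CPM in shCtr and 105, 132 and 98 CPM in shOSGEP, a log2 change of 0.24 ± 0.17 (SE). Rpl7l1 changed by -0.22 on this scale, Rpl35a by -0.19 and Rps19, the gene most often mutated in Diamond-Blackfan anaemia, by -0.17. Rps7 had RNA differences of -0.14, -0.09 and -0.07 in the 3 replicates. Rpl26 had RNA differences of 0.07, 0.11 and 0.03, and Rpl13a, known for a role outside the ribosome in interferon responses, had 0.01, 0.05 and 0.02. All adjusted p-values of RP genes in total RNA were at least 0.97. With 1 library left out, the change nearest to 0 was 0.09 for Rpl22 (without shOSGEP replicate 2), -0.12 for Rpl7l1 (without shOSGEP replicate 1), -0.09 for Rpl35a (without shCtr replicate 1) and -0.10 for Rps19 (without shOSGEP replicate 3).

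Across the 81 RP genes, the fitted TE change and the share of ANN codons had a Spearman rho of -0.12, given as a description, since the genes share libraries. Within replicates 1 to 3 it was -0.01, -0.15 and -0.07. The RPF changes of replicates 1 and 2 had a rho of -0.42 over the same genes, whereas it was 0.07 for replicates 1 and 3 and 0.18 for replicates 2 and 3.

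The genes that act on the ribosome pool did not pass the test either. Of 31 tested ribosome biogenesis genes, including nucleolin (Ncl), fibrillarin (Fbl) and the dyskerin complex, 0 were called in RPF, total RNA or TE, with medians of -0.06, -0.07 and -0.0013. Of 15 regulators of TOP messages, including Mtor, Larp1 and Eif4ebp1, 0 were called in any of the 3 fits, with medians of -0.02, -0.05 and -0.05. The 21 other TOP messages and the 15 messages without a TOP tract also had 0 calls. Fau, which encodes a ribosomal protein fused to a ubiquitin-like sequence, changed by 0.30 in TE, and Rack1, a scaffold on the small subunit, by -0.23.

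Footprints per RNA in shCtr were then compared between genes, to describe how RP messages were loaded in control cells. This value is the log2 ratio of RPF to RNA, set so that the median of the 11228 genes tested was 0. The RP median was -0.07, and replicates 1 to 3 had medians of 0.05, 0.06 and -0.32. The spread was wide, from -7.74 to 1.74, with quartiles at -0.53 and 0.45, where those of all genes were -0.33 and 0.34. The 49 large-subunit and 32 small-subunit genes had medians of -0.10 and -0.06.

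Of the 81 RP genes, 13 were lower than the typical gene (16%, beside 5.48% of all genes tested) and 3 were higher (3.70%, beside 6.14%) at an edgeR adjusted p of 0.05. With the replicate number as a block, 19 were lower and 11 higher, beside 13.9% of all genes in each direction, and the 16 RP genes of the fit without a block were all among these 30. Log2 ratios below -2 were seen in 7 RP genes (8.64%, beside 0.365% of all genes) and below -3 in 3 (3.70%, beside 0.107%). Without replicate 1, 7 were lower and 1 higher, beside 1.04% and 2.40% of all genes. DESeq2 gave 16 lower (all genes 9.54%) and 7 higher (9.39%). A correction for coding and exon length gave 24 lower (all genes 15.4%) and 10 higher (22.8%), and no filter on low counts gave 46 lower (all genes 18.5%) and 2 higher (10.5%).

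**Figure D3:**
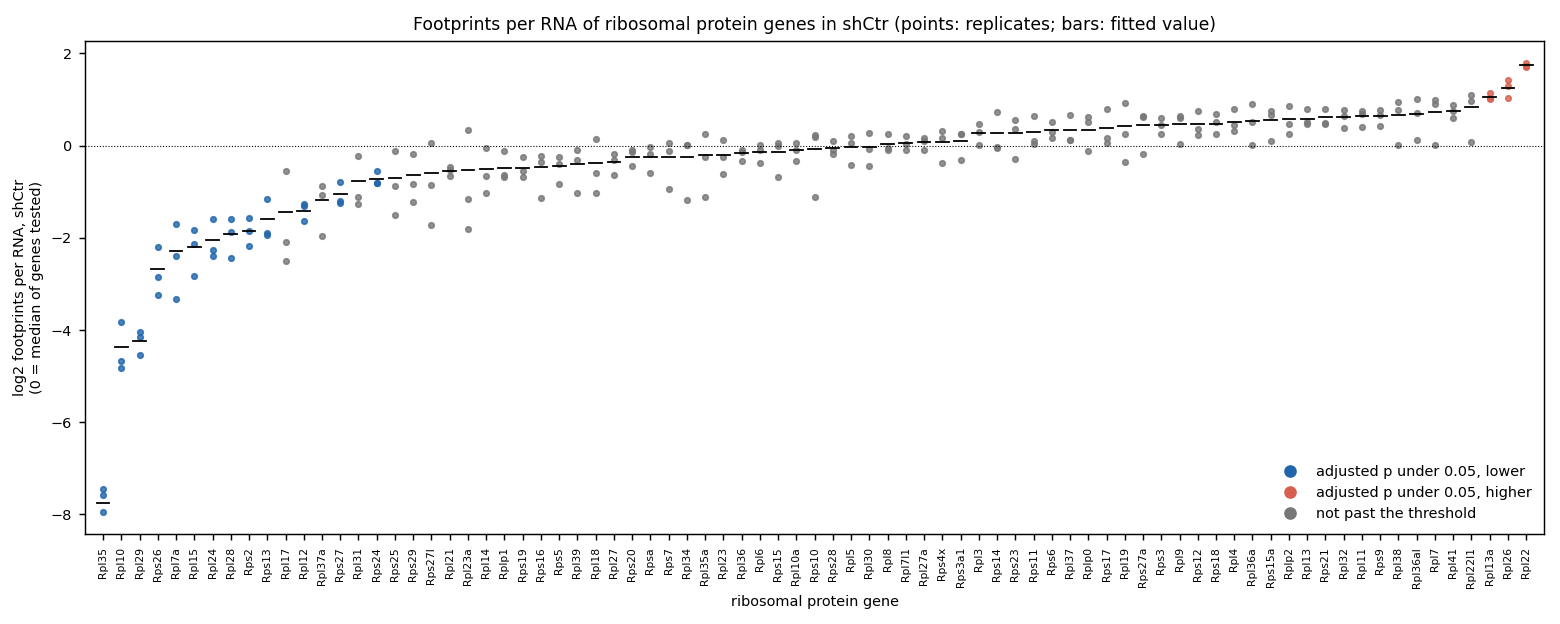
Log2 footprints per RNA in shCtr (y axis, 0 is the median of genes tested) for 79 of the 81 tested ribosomal protein genes (x axis, ordered by the fitted value). Points are the 3 replicates and bars the fitted value; blue and red mark the 13 lower and 3 higher genes, and Rpl35 sits at -7.74, apart from all others.

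Rpl35 had the lowest ratio. It held 19, 15 and 53 RPF counts in the 3 shCtr libraries and 32121, 34939 and 24750 RNA counts. The replicate log2 ratios were -7.58, -7.95 and -7.45, and the fitted value was -7.74 ± 0.24 (SE, edgeR adjusted p = 1.06e-06), 214.1-fold below the typical gene. Rpl10, which helps join the subunits, had 19.6, 9.46 and 8.97 CPM in RPF and 696, 702 and 599 CPM in RNA, a log2 ratio of -4.37 ± 0.34 (SE, edgeR adjusted p = 8.30e-05). Rpl29 had 14.4, 16.5 and 10.1 CPM in RPF and 643, 711 and 607 CPM in RNA, a log2 ratio of -4.23 ± 0.25 (SE, edgeR adjusted p = 2.04e-05). Rps26 had replicate log2 ratios of -2.85, -2.19 and -3.24 and a fitted value of -2.68 ± 0.31 (SE). In each of these 4 genes all replicates lay below -2.

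The other 9 low genes were Rpl7a (-2.30), Rpl15 (-2.20), Rpl24 (-2.04), Rpl28 (-1.91), Rps2 (-1.85), Rps13 (-1.60), Rpl12 (-1.41), Rps27 (-1.04) and Rps24 (-0.71) in log2 ratio. The gene just outside the threshold with the lowest ratio was Rpl17, at -1.45 with replicate values of -2.09, -0.55 and -2.51. Of the context genes, Fau stood at -0.76 ± 0.21 (SE), past the threshold, and Rack1 at 0.42 ± 0.26 (SE), which was not.

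Rpl22 had the highest ratio. Its RPF level was 135, 131 and 105 CPM and its RNA level 98.1, 103 and 83.5 CPM, and the replicate log2 ratios of 1.79, 1.73 and 1.69 hardly differed. The fitted value was 1.74 ± 0.19 (SE, edgeR adjusted p = 0.000566). Rpl26, which is known to bind p53 mRNA, stood at 1.24 ± 0.20 (SE), with replicate log2 ratios of 1.29, 1.02 and 1.41. Rpl13a stood at 1.05 ± 0.22 (SE), with 1.02, 1.02 and 1.14. The lowest replicate value of these 3 genes was 1.02. With the length correction Rpl26 moved to 0.60 and Rpl22 to 3.24.

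The pseudogene copies of RP genes were counted separately in the tables. Annotated pseudogenes that hold a 30-base window of an RP coding sequence, 1712 in all, were each assigned to the RP gene with which they share most windows. In RPF they held 11.4%, 9.40% and 11.1% of the counts of RP genes plus copies in the shCtr libraries and 10.7%, 10.2% and 11.4% in shOSGEP. In total RNA they held 0.877%, 0.459% and 0.926% in shCtr and 0.906%, 0.447% and 0.952% in shOSGEP. The difference between the assays at the same hairpin and replicate number was 8.94 to 10.5 percentage points, with RPF higher in 6 of 6. Averaged over both hairpins of a replicate number it was 9.92 ± 0.52 (SD, n = 3 replicates), and an exact two-sided sign-flip permutation test over these gave p = 0.25, the smallest it can give. The groups by hairpin overlapped in both assays.

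The copies were unevenly spread over the genes. They held over 10% of the shCtr RPF counts in 25 RP genes and over 10% of the RNA counts in 0. In 7 genes (Rpl5, Rpl12, Rpl15, Rpl28, Rpl35, Rpl36 and Rps26) the copies held more RPF counts than the gene itself, and 5 of these 7 were among the 13 low genes. For Rpl12, which sits at the base of the stalk, 19954 RPF counts fell on 19 pseudogenes and 10716 on the gene, so that copies held 65.1% in RPF and 1.33% in RNA. For Rpl15 the copies held 71.5% in RPF and 0.71% in RNA, and for Rpl35 they held 85.4% and 0.10%. For Rpl29 they held only 5.07% in RPF, and for Rpl10 2.16%.

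**Figure D4:**
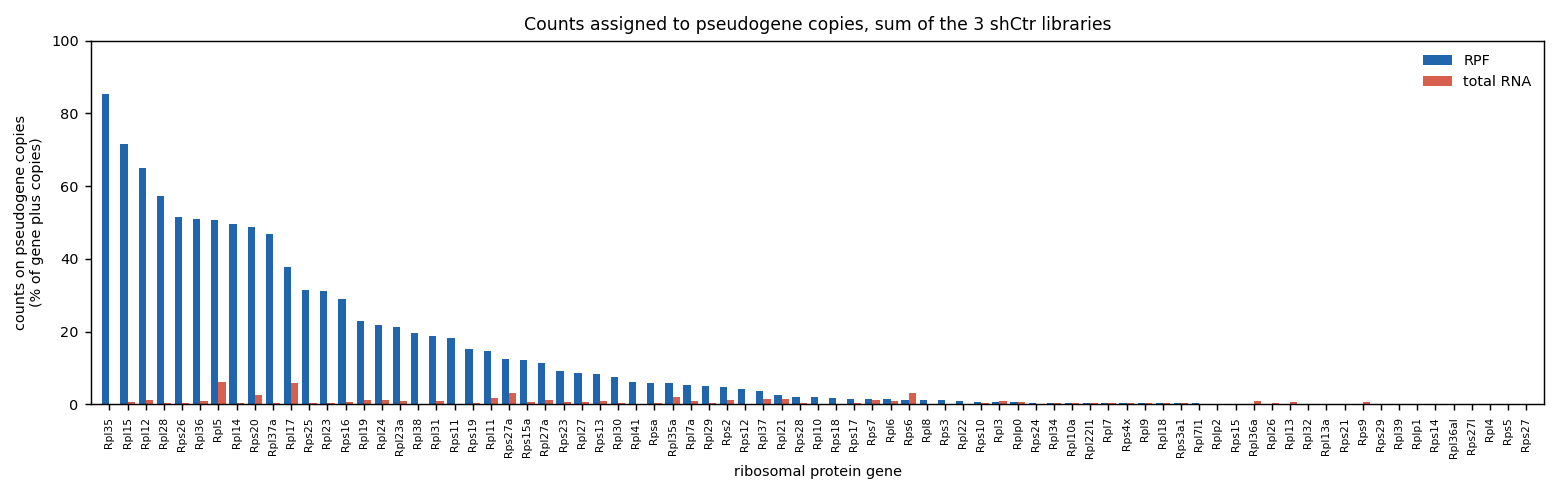
Counts on annotated pseudogene copies as a percent of the counts on the gene plus its copies (y axis), summed over the 3 shCtr libraries, for 79 ribosomal protein genes with at least 10 RPF counts (x axis), in RPF (blue) and total RNA (red). The bars reach 85.4% for Rpl35 in RPF, and none exceeds 10% in total RNA.

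When the counts of the copies were added to each RP gene, an alternative chosen after seeing the data, the median log2 ratio moved to 0.06, and 12 genes were lower and 4 higher, beside 5.49% and 6.01% of all genes. Of the 13 low genes 11 stayed past the threshold, and Rpl12 (0.03 ± 0.22, SE) and Rpl15 (-0.33 ± 0.33, SE) did not. Rpl35 moved from -7.74 to -4.85, Rps26 from -2.68 to -1.52 and Rpl28 from -1.91 to -0.80. Rpl10 (-4.34) and Rpl29 (-4.17) hardly moved, nor did the 3 high genes. Rpl5, which carries 5S rRNA into the ribosome, moved from -0.04 to 0.97 ± 0.22 (SE, edgeR adjusted p = 0.0254). Over the 81 genes the log2 ratio and the mean number of copies per window had a Spearman rho of -0.27, given as a description. How reads with several matches were treated in these gene tables is not given in the sources used here, and its part in the low ratios was not tested. The ratios of genes with copies are therefore uncertain, and a low value cannot be told apart from lost or reassigned reads. Adding copies left the comparison of hairpins at 0 RP genes called in RPF, total RNA and TE, although 1 RP gene in RPF and 1 in TE then had an unadjusted p under 0.05. The log2 change of Rpl35 between hairpins went from 0.72 to 1.33 in RPF and from 0.74 to 1.33 in TE, and that of Rps26 in RPF went from -0.41 to -0.15.

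Ratios of RP genes with and without an annotated TOP start overlapped. The 12 tested RP genes with the C and at least 4 pyrimidines at +1 of the start nearest to the gene start had a median log2 ratio of 0.13 and ranged from -7.74 to 0.65, and the 49 with an entry but without it had a median of -0.10 and ranged from -4.37 to 1.74. Other TOP messages had a median of -0.01, with 2 of 21 higher and 3 lower at the threshold. For this and the lists that follow, the shares over all genes tested were 6.14% higher and 5.48% lower. Messages listed as having no TOP tract had a median of -0.62, with 0 of 15 higher and 3 lower, and Gapdh was the lowest at -4.40. The lists of TOP messages and of messages without a tract were set by gene name, and their start sites were not checked here. Pseudogene copies were assigned to RP genes only, so lost or reassigned reads were not assessed in the other lists. Differences between the lists were not tested. Ribosome biogenesis genes had a median of 0.29, with 3 of 31 higher and 1 lower. Regulators had a median of -0.04, with 1 of 15 higher, namely Eif4ebp2.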

How the data were processed

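RPF and total RNA libraries of B16F10 cells were grouped by hairpin and assay from the sample labels. The deposited values of both tables were whole-number read counts per Ensembl gene, with no normalisation by the authors. The submitters' processing notes list FastQC 0.11.9, Trim Galore 0.6.6, cutadapt and STAR 3.0, and both GRCm38 and GRCm39. The study's ribosome profiling methods describe STAR alignment of trimmed footprints to a coding transcriptome, with perfect matches kept. They also describe a separate STAR alignment of the footprints to the GRCm38 genome, for an analysis of ribosome stalling. The deposited RPF table also counts rRNA, noncoding RNAs and pseudogenes, so the alignment to the coding transcriptome alone did not make it. Which alignment was counted is not stated. The settings, annotation, strand and treatment of multiple matches behind the deposited tables are not given in the sources used here, so reads of near-identical copies could be split, lost or reassigned. Symbols and GRCm38 coordinates came from GENCODE M21, in which 260 of 55487 IDs were not found. For each gene 1 transcript was chosen by APPRIS rank, RefSeq match, support level and length. The members, lists and tests were chosen with earlier results of these data known.

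Genes were kept by filterByExpr (minimum count 10) and scaled by TMM within each assay. Quasi-likelihood fits used edgeR 4.0.16 (R 4.3.3), and p-values were adjusted by Benjamini-Hochberg (threshold 0.05). The SE of a fitted log2 value was derived as its absolute size divided by the square root of the F statistic of the edgeR test. TE was the interaction of hairpin and assay. For footprints per RNA the RPF library sizes were rescaled so that the median log2 ratio was 0, because TMM within an assay does not set that level. Replicate differences used log2 CPM with a prior count of 2. DESeq2 1.42.0 was an alternative, and each kind of fit was run on simulated counts with known changes. These counts had 1 fixed dispersion and no replicate effects, so they do not give the power in these libraries. Same-numbered libraries deviated together from their group means. The r was 0.29 to 0.66 between hairpins over all genes tested and 0.44 to 0.55 between assays in shCtr. The replicate number was therefore taken to pair libraries in the replicate differences, and blocked fits were run as alternatives. Fitted changes, SE and p-values are from fits without a block, which ignore this pairing, unless a block is named. No 2 libraries of a group agreed within sampling noise (chi-square per degree of freedom at least 81.1). The paper's methods describe trimming degenerate (random) bases from the ends of footprint reads. Whether duplicate reads were removed before counting is not given in the sources used here.

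Genes named were, for each fit, the 4 RP genes with the smallest p; the 3 highest and 3 lowest in footprints per RNA with at least 50 mean counts in each shCtr assay; the 3 highest per length in shCtr RNA; the 3 with the largest smallest-replicate change in each direction; the paralogs; and Fau, Rack1 and Osgep. Some genes that this rule names are not reported here. Genes named for their copies or listed as calls were chosen after their values were seen.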

Additional observations from a re-analysis of the deposited data

How the results depend on the processing

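The count of 0 RP genes called in RPF, total RNA and TE held under every alternative run: RLE factors, no filter, protein-coding genes only, protein-coding totals, DESeq2, the replicate block, family sums, and leaving out each library or all replicate 1 libraries. With the replicate block the RP medians were -0.05 in RPF, -0.02 in total RNA and -0.05 in TE, and the share tests gave exact p = 1 by sign flips, which cannot go below 0.25. Leaving out 1 library at a time moved the RP median between -0.28 (without shOSGEP replicate 1) and 0.25 (without shOSGEP replicate 3) in RPF, between -0.13 and 0.045 in total RNA, and between -0.27 and 0.19 in TE.

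The share difference changed sign with all counts as the denominator (-0.211 points in RPF, -0.0340 in total RNA), in RPF without both replicate 1 libraries (-0.136), and with single libraries left out (-0.398 to 0.578 in RPF, -0.185 to 0.188 in total RNA). For footprints per RNA, the 13 lower and 3 higher genes became 46 and 2 with no filter (median -0.70), 24 and 10 with a length correction, 16 and 7 with DESeq2, and 19 and 11 with the replicate block. The shares over all genes moved too, from 5.48% lower and 6.14% higher to 18.5% and 10.5%, 15.4% and 22.8%, 9.54% and 9.39%, and 13.9% each. Leaving out a replicate gave 7 to 12 lower and 1 to 4 higher, the fewest without replicate 1. With no filter many more low-count genes set the median; the cause of the other shifts was not tested. Of the genes named, Rpl26 (-0.035 to 0.17) and Rpl13a (-0.12 to 0.14) changed sign in total RNA when single libraries were left out. Rpl13a and Rpl26 lost their footprint calls with no filter (0.43 and 0.62) and without replicate 1 (1.04 and 1.18), and Rpl13a also without replicate 2 (1.08). RPF depth on protein-coding genes limits small changes.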
